A study of Mus musculus with 8 samples.

Results

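The 96 genes with a potassium channel symbol were read out of a table of 27179 genes measured by RNA sequencing in 8 tumors. They are all rows whose symbol begins with Kcn, followed by letters and a number, other than the long noncoding RNA Kcnq1ot1. By class they comprise 40 voltage-gated (Kv) pore-forming subunits, 15 inward rectifiers (Kir), 14 two-pore-domain subunits (K2P), 8 subunits of the class named calcium- or sodium-activated, 16 auxiliary subunits and 3 RNAs transcribed from the opposite strand. Classes were assigned by gene symbol and not by what opens each channel. The family was chosen because its members were lower in one group of these tumors and Kcnk3 strongly so, and therefore the differences given for its members describe that choice and carry no test of it.
The tumors were C26 colon carcinomas grown under the skin of adult male CD2F1 mice and taken once the hosts were cachectic, that is, wasting. The 4 cxC26 scr tumors came from the cachexia-inducing cxC26 line carrying Cas9 and a scrambled guide RNA, and the other 4, labelled cxC26 IL6KOs1, came from cxC26 cells carrying Cas9 and guides against Il6, the gene of the cytokine interleukin-6. The knockout cells were a single subclone, and in experiments of the same study in CD2F1 mice that were followed to cachexia, more cells of this subclone than of the control line were implanted and its tumors were collected later. For the sequenced tumors neither is stated, so that effects of the clone, the inoculum, the growth time and the loss of interleukin-6 cannot be told apart. Il6 itself was counted with 326 to 438 reads among control tumors and 56 to 86 among knockout tumors, with no overlap.
Potassium channels let potassium ions leave or enter the cell along their gradient and thereby set the resting membrane potential and end electrical excitation. K2P channels are open at rest and carry the background leak, and Kv channels open on depolarization. Kir channels pass current more readily into the cell than out of it, and calcium-activated channels open when cytosolic calcium rises. In cells that do not fire, including tumor and immune cells, the same channels act on volume, on the driving force for calcium entry and on the cell cycle, and auxiliary subunits alter the gating or the surface level of the pores.
The authors deposited log2 CPM, that is, reads per gene relative to the size of each library, and the reads themselves were recovered from these values. Each tumor held between 14158989 and 17048062 reads on genes. A gene was tested where at least 4 of the 8 tumors reached 1 CPM, which 13262 genes did, and limma (lmFit and eBayes with a mean-variance trend) with Benjamini-Hochberg adjustment called 39.8% of them at an adjusted p under 0.05, 20.7% lower and 19.1% higher in cxC26 IL6KOs1. The median log2 fold change of all tested genes was -0.0029. Of 4 tested markers of the colonic epithelium, Krt20 had a mean log2 CPM of 10.20 ± 0.11 (SD, n = 4) in cxC26 scr and 10.42 ± 0.05 in cxC26 IL6KOs1, whereas Cdx2 was lower, with 17 to 34 reads in cxC26 scr and at most 1 in cxC26 IL6KOs1, Krt18 and Cdh1 were higher by 3.20 and 1.46 on the log2 scale in cxC26 IL6KOs1, and Krt19 and Vil1 had at most 3 reads in any tumor.
Of the 96 potassium channel genes, 26 passed the filter. Of these 26, 9 were called lower (34.6%, against 20.7% of all tested genes) and 5 higher (19.2%, against 19.1%), and 12 were not called. In 9 members every cxC26 IL6KOs1 tumor lay below every cxC26 scr tumor, as in 19.3% of all tested genes, and in 4 members every one lay above, as in 17.8%. A change of at least 2-fold with a call was found for 8 members lower (3.93% of all tested genes) and 5 higher (6.25%), and 5 members had a log2 fold change of -3 or less (0.407%). Since the same contrast chose the family, nothing is read from these shares. The median log2 fold change of the 26 was 0.14, above 0 although 9 were called lower and 5 higher, since 14 members had positive and 12 negative values. The 5 values largest in size were all negative.

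**Figure D1:**
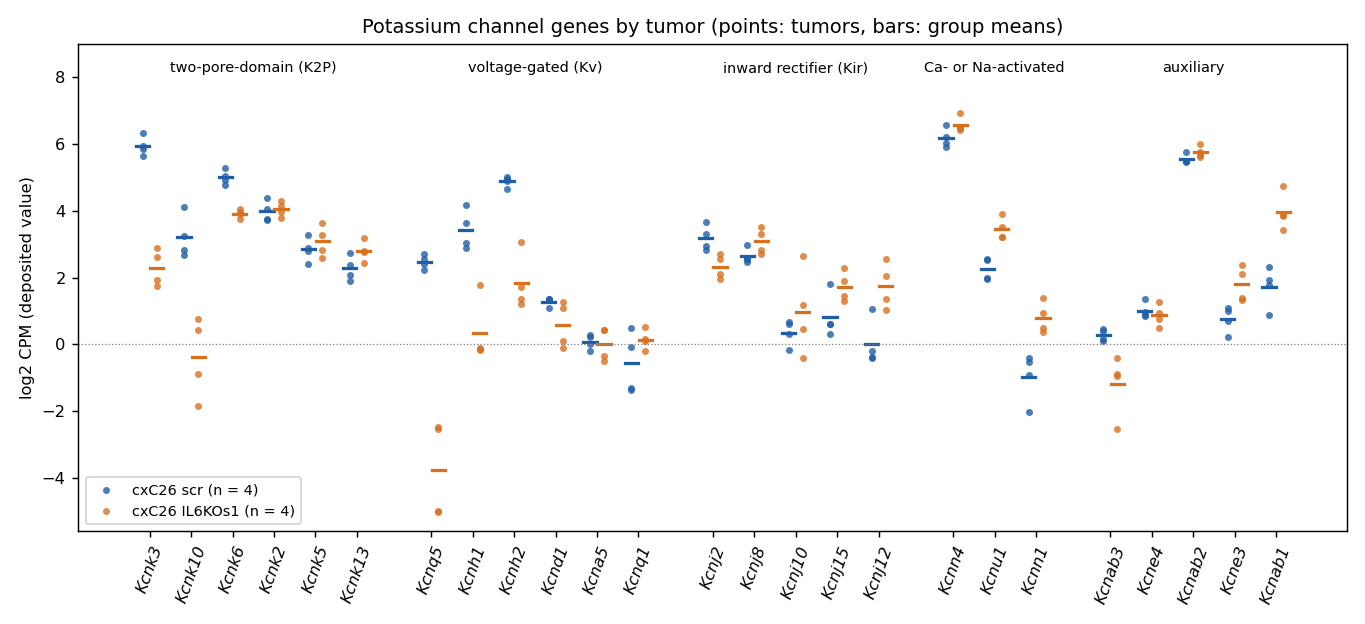
Log2 CPM (vertical axis) of tested potassium channel genes, grouped by class, in the 4 cxC26 scr tumors (blue points) and the 4 cxC26 IL6KOs1 tumors (orange points), with bars at the group means. Kcnk3, Kcnk10, Kcnq5, Kcnh1 and Kcnh2 show the widest gaps, each with a log2 fold change of -3 or less and no overlap between groups.

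The lower calls lay mostly in K2P and Kv pores. Over all tested genes 20.7% were lower and 19.1% higher. Classes hold few tested genes and the same contrast chose the family, so nothing is read from the shares by class. Among 6 tested K2P genes 3 were lower and 0 higher (median log2 fold change -0.51), and among 7 tested Kv genes 4 were lower and 0 higher, with 6 negative values and 1 positive. Among 5 tested Kir genes 1 was lower and 1 higher (median 0.61). In the class named calcium- or sodium-activated, 0 of 3 tested genes were lower and 2 higher (median 1.20). Of 5 tested auxiliary subunits 1 was lower and 2 higher (median 0.21). For these counts of 0, limma with voom precision weights gave 0 as well, and at an unadjusted p under 0.05 there was 1 higher K2P gene, Kcnk13, with 0 higher Kv and 0 lower calcium- or sodium-activated genes. In bulk tumors, fewer cells of a kind that expresses a channel and less of its RNA per cell cannot be told apart.

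**Figure D2:**
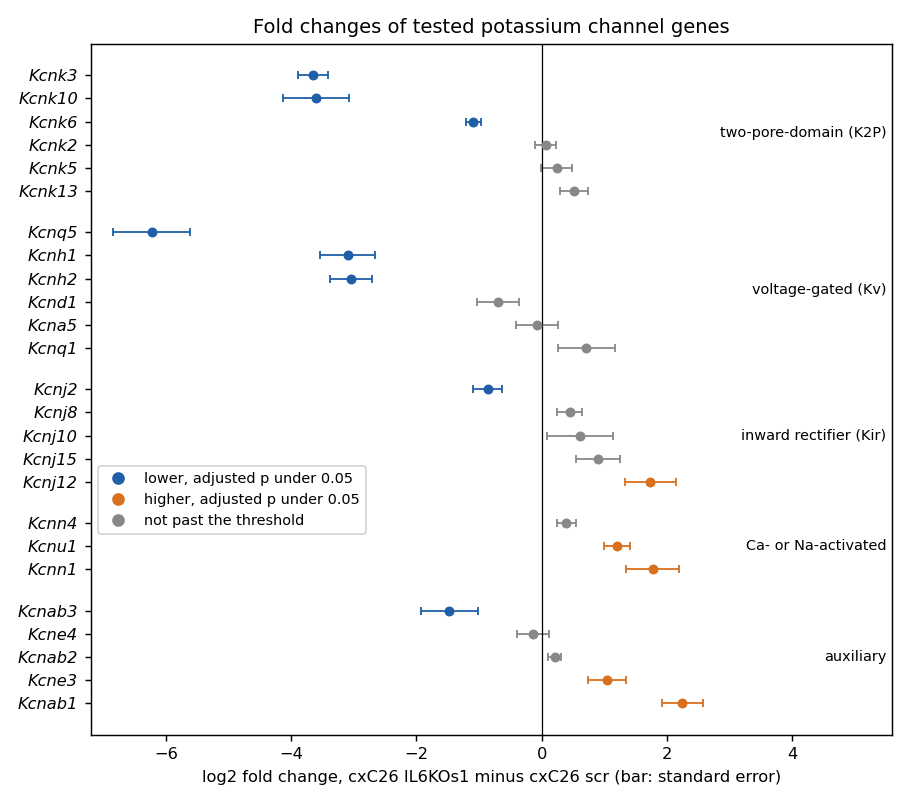
Log2 fold change of tested potassium channel genes, cxC26 IL6KOs1 minus cxC26 scr (horizontal axis, points), with its standard error (bars), by class. Blue points are members called lower, orange points members called higher and grey points members not called; the fitted value of Kcnq5 rests on 0 to 2 reads in the cxC26 IL6KOs1 tumors.

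Kcnk3 encodes TASK-1, an acid-sensitive K2P channel that carries background current in heart, lung artery and adrenal cells among others. It had 1338, 995, 705 and 892 reads in cxC26 scr and 54, 52, 97 and 106 in cxC26 IL6KOs1. The lowest control tumor thus stood far above the highest knockout tumor. Mean log2 CPM was 5.94 ± 0.29 (SD, n = 4) in cxC26 scr and 2.29 ± 0.55 (n = 4) in cxC26 IL6KOs1, a log2 fold change of -3.65 (SE 0.24), or 12.5-fold lower.
Per length, Kcnk3 led the whole family in the control tumors. Its level of 12.5 to 20.2 CPM per kb of exon averaged 15.7 and ranked 1 of the 26 tested members in cxC26 scr, whereas in cxC26 IL6KOs1 it averaged 1.29 CPM per kb (0.836 to 1.84) and ranked 12. Of the summed level per kb of the K2P genes, Kcnk3 made up 48.7% ± 2.77 (SD, n = 4) in cxC26 scr and 9.22% ± 3.30 in cxC26 IL6KOs1. Kcnk6, Kcnk2, Kcnk5 and Kcnk13 made up 26.2%, 24.3%, 18.4% and 16.1% of the class in the knockout tumors, so that no single K2P gene predominated there.
Kcnk10 encodes TREK-2, a K2P channel opened by stretch, heat and lipids. It had 287, 103, 135 and 109 reads in cxC26 scr and 4, 7, 26 and 19 in cxC26 IL6KOs1, with a log2 fold change of -3.61 (SE 0.52). The groups did not overlap, and cxC26 scr tumor 1 stood above the other 3 control tumors. Kcnk6, the gene of TWIK-2, which is found in macrophages and blood vessels, had 647, 445, 468 and 466 reads in cxC26 scr and 268, 185, 238 and 225 in cxC26 IL6KOs1, a log2 fold change of -1.09 (SE 0.13) with no overlap. Its decrease was thus smaller than those of Kcnk3 and Kcnk10, but it had the smallest standard error among the members called.
The remaining 3 tested K2P genes were not called. Kcnk2, the gene of TREK-1 and the closest relative of Kcnk10, had 350, 269, 189 and 208 reads in cxC26 scr and 225, 217, 309 and 258 in cxC26 IL6KOs1, with a log2 fold change of 0.07 (SE 0.17) and overlapping groups. Kcnk5, the alkaline-sensitive TASK-2, and Kcnk13, the THIK-1 channel of microglia and other macrophages, had log2 fold changes of 0.24 (SE 0.24) and 0.52 (SE 0.22), both with overlapping groups and neither called, although Kcnk13 was called higher in 1 of 15 alternative settings. Of the 8 K2P genes that were not tested, 4 had 0 reads in every tumor. Among the others, Kcnk7 had 5, 3, 2 and 7 reads in cxC26 scr and 11, 9, 11 and 18 in cxC26 IL6KOs1, Kcnk12 had 7, 4, 7 and 11 against 0, 8, 1 and 3, and Kcnk4 had 10, 3, 6 and 7 against 8, 4, 4 and 5.
Summed over the class, the K2P genes came to 134 ± 27.2 CPM (SD, n = 4) in cxC26 scr and 55.1 ± 2.73 CPM in cxC26 IL6KOs1, 41.1% of the control level, without overlap. For all 96 members the sums were 347 ± 53.1 and 282 ± 22.7 CPM, again without overlap (311.7 to 425.6 against 261.2 to 308.9 CPM). Without Kcnk3 they were 284 ± 40.7 and 277 ± 24.6 CPM and overlapped. The gap between the groups in the family's summed level was narrow (311.7 against 308.9 CPM) and was absent without Kcnk3. No other member was left out in this way, so the gap is not shown to be particular to Kcnk3. The highest family sum was that of cxC26 scr tumor 1, with or without Kcnk3.

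**Figure D3:**
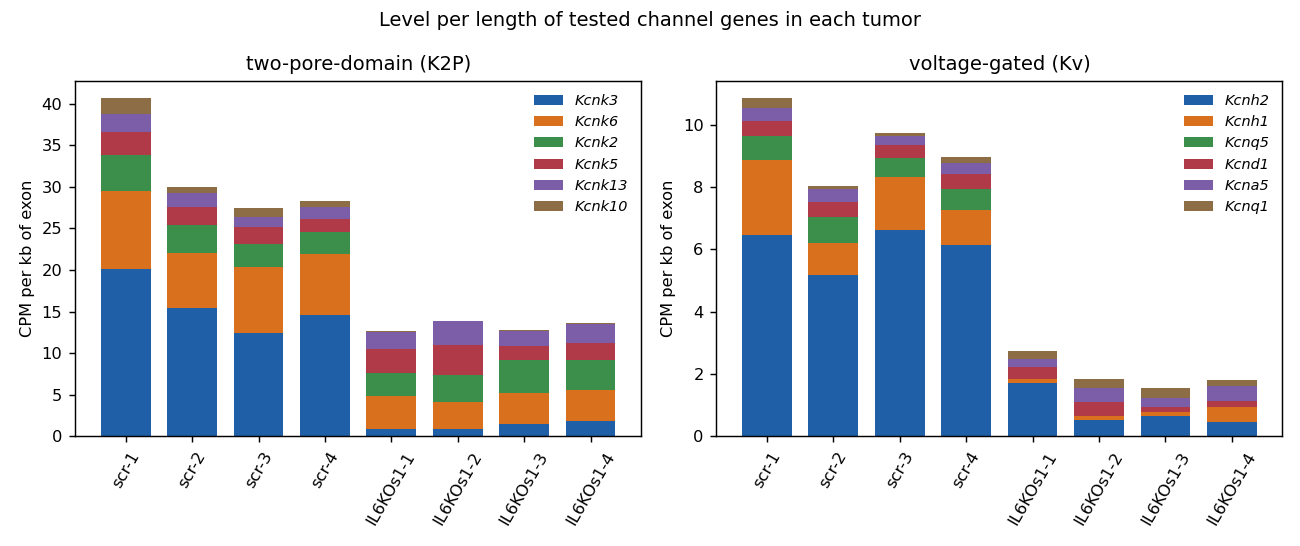
Level per length, in CPM per kb of exon (vertical axes), of tested K2P genes (left) and Kv genes (right), stacked for each of the 8 tumors. Kcnk3 and Kcnh2 form the largest blocks in the cxC26 scr tumors, and K2P and Kv stacks are lower in every cxC26 IL6KOs1 tumor than in any cxC26 scr tumor.

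The largest relative decrease among the tested members was that of 1 Kv gene. Kcnq5, a subunit of the M-current that limits repetitive firing in neurons, had 98, 105, 66 and 81 reads in cxC26 scr and 0, 2, 0 and 2 in cxC26 IL6KOs1. Against a floor of 3 reads per tumor it was at least 27.9-fold lower in cxC26 IL6KOs1. The fitted log2 fold change of -6.23 depends on the offset added to counts of 0 and is no bound.
Kcnh2 (ERG1, the channel of the rapid delayed rectifier current in heart muscle) and Kcnh1 (EAG1) belong to the ether-a-go-go branch, members of which are often found in tumor cells. Kcnh2 had 521, 407, 457 and 459 reads in cxC26 scr and 136, 35, 51 and 33 in cxC26 IL6KOs1, a log2 fold change of -3.05 (SE 0.33). Kcnh1 had 298, 119, 178 and 125 reads in cxC26 scr and 14, 12, 14 and 49 in cxC26 IL6KOs1, a log2 fold change of -3.10 (SE 0.44). Neither gene's groups overlapped, and each had 1 knockout tumor above the other 3, tumor 1 for Kcnh2 and tumor 4 for Kcnh1. Kcnh2 was the Kv gene of highest level per length in cxC26 scr, 6.10 CPM per kb of exon, and ranked 5 among the 26 members there and 14 in cxC26 IL6KOs1, where it averaged 0.847 CPM per kb. Its share of the class per kb was 59.5% ± 3.65 (SD, n = 4) and 25.6% ± 11.5.
Kcnd1 (Kv4.1), Kcna5 (Kv1.5) and Kcnq1 (the slow delayed rectifier of heart and a channel of secretory epithelia) were not called, with log2 fold changes of -0.70 (SE 0.33), -0.08 (SE 0.33) and 0.71 (SE 0.45), although Kcnd1 was called lower in 1 of 15 alternative settings. The Kv class summed to 55.2 ± 6.63 CPM (SD, n = 4) in cxC26 scr and 13.6 ± 3.36 CPM in cxC26 IL6KOs1, 24.7% of the control level, without overlap.
Of the 33 Kv genes that were not tested, 11 had 0 reads in every tumor and 4 reached 10 reads in any tumor. Kcna3 (Kv1.3), which sets the membrane potential of T lymphocytes, had 7, 7, 7 and 3 reads in cxC26 scr and 24, 7, 10 and 13 in cxC26 IL6KOs1. Kcnh6, a relative of Kcnh2, had 1, 10, 5 and 16 reads in cxC26 scr and 5, 0, 0 and 0 in cxC26 IL6KOs1. Kcnh4 and Kcnc4 had at most 11 and 13 reads in any tumor. They were not tested.
Among inward rectifiers, Kcnj2 (Kir2.1, which holds the resting potential of muscle and endothelium) had 165, 125, 101 and 193 reads in cxC26 scr and 69, 53, 102 and 85 in cxC26 IL6KOs1, a log2 fold change of -0.86 (SE 0.23). On the log2 CPM scale the groups did not overlap. Kcnj12 (Kir2.2), from the same subfamily, went the other way, with 34, 12, 12 and 11 reads in cxC26 scr, 96, 35, 32 and 59 in cxC26 IL6KOs1 and a log2 fold change of 1.74 (SE 0.41). Its groups overlapped, since cxC26 scr tumor 1 stood above the other control tumors. Kcnj8 (Kir6.1), the pore of ATP-sensitive channels in pericytes and smooth muscle, was the Kir gene of highest level per length in cxC26 scr at 2.47 CPM per kb of exon. Its log2 CPM was 2.97, 2.56, 2.48 and 2.57 in cxC26 scr and 2.82, 3.31, 3.52 and 2.72 in cxC26 IL6KOs1, a log2 fold change of 0.45 (SE 0.21) with overlap.
Kcnj15 (Kir4.2) and Kcnj10 (Kir4.1, the potassium-buffering channel of glia) were not called, with log2 fold changes of 0.90 (SE 0.35) and 0.61 (SE 0.53), although Kcnj15 was called higher in 2 of 15 alternative settings. Kcnj10 had 101 reads in cxC26 IL6KOs1 tumor 1 and between 10 and 32 in the other 3, and without that tumor its log2 fold change was 0.05. Kcnj14, not tested, had at most 17 reads in any tumor. In the class per kb, Kcnj2 made up 30.5% ± 5.45 (SD, n = 4) in cxC26 scr and 13.0% ± 3.28 in cxC26 IL6KOs1, and Kcnj12 made up 6.82% ± 2.90 and 18.1% ± 7.92. The class sum, 20.9 ± 4.01 CPM in cxC26 scr and 24.7 ± 2.46 CPM in cxC26 IL6KOs1, overlapped between groups.
All 3 tested channels of the calcium- or sodium-activated class had positive values. Kcnn4 (KCa3.1), the intermediate-conductance calcium-activated channel of lymphocytes, macrophages and many carcinomas, had 1591, 1198, 856 and 1011 reads in cxC26 scr and 1973, 1189, 1406 and 1297 in cxC26 IL6KOs1. The groups overlapped, the log2 fold change of 0.39 (SE 0.15) was not called, though 4 of 16 alternative settings called it higher, and by level per length Kcnn4 ranked 2 of 26 in cxC26 scr (14.4 CPM per kb of exon) and 1 in cxC26 IL6KOs1 (18.9 CPM per kb). The first rank of Kcnk3 in cxC26 scr rests on the division by exon length, 3976 bases for Kcnk3 and 5115 for Kcnn4. Before that division Kcnn4 was above Kcnk3 in every control tumor, with a mean log2 CPM of 6.18 against 5.94. Kcnu1 (SLO3), known as a channel of sperm, was placed in this class by its symbol. It had 66, 94, 82 and 59 reads in cxC26 scr and 185, 208, 145 and 134 in cxC26 IL6KOs1, a log2 fold change of 1.20 (SE 0.21) with no overlap. Kcnn1 (SK1), a small-conductance channel of neurons, had 11, 8, 3 and 11 reads in cxC26 scr and 42, 19, 20 and 27 in cxC26 IL6KOs1, a log2 fold change of 1.77 (SE 0.42) with no overlap. Kcnma1, the large-conductance BK channel, was not tested, with at most 13 reads in any tumor.
Among auxiliary subunits, the 3 tested beta subunits of Kv1 channels, which bind the pore from the cytoplasm, had different values. Kcnab1 had 30, 81, 48 and 58 reads in cxC26 scr and 236, 371, 227 and 155 in cxC26 IL6KOs1, a log2 fold change of 2.25 (SE 0.33) with no overlap, the highest among the 26. Kcnab3 had 18, 17, 19 and 20 reads in cxC26 scr and 8, 10, 8 and 2 in cxC26 IL6KOs1, a log2 fold change of -1.47 (SE 0.46) with no overlap, and its call was lost in 3 of 15 alternative settings. Kcnab2, the auxiliary gene of highest level per length in cxC26 scr (8.43 CPM per kb of exon, rank 3 of 26), had 902, 728, 631 and 689 reads in cxC26 scr and 875, 883, 809 and 705 in cxC26 IL6KOs1, with a log2 fold change of 0.21 (SE 0.11) and overlapping groups.
Kcne3, a single-pass subunit that keeps Kcnq1 channels open in intestinal epithelium, had 33, 26, 16 and 32 reads in cxC26 scr and 42, 59, 81 and 36 in cxC26 IL6KOs1, a log2 fold change of 1.05 (SE 0.30). The groups did not overlap on the log2 CPM scale, and the call was lost in 3 of 15 alternative settings. Kcne4, which reduces the current of several Kv channels, had a log2 fold change of -0.14 (SE 0.26). Kcnip4, a calcium-binding partner of Kv4 channels, was not tested, with 5, 8, 16 and 20 reads in cxC26 scr and 7, 12, 4 and 3 in cxC26 IL6KOs1. The auxiliary class summed to 56.8 ± 3.07 CPM (SD, n = 4) in cxC26 scr and 78.2 ± 15.0 CPM in cxC26 IL6KOs1, higher without overlap.
In all, 70 of the 96 members were not tested, of which 22 had 0 reads in every tumor, among them the 3 opposite-strand RNAs, and 10 reached at least 10 reads in any tumor. The highest count among the 70 was 24 reads. At this depth a count of 0 allows up to 3 reads per tumor, so that low expression of these genes was not detectable, and such limits cover counting error alone.
The tumors held different amounts of RNA of other cell types, and some of the members are known from those cells. Of 7 tested T cell markers 7 were higher in cxC26 IL6KOs1, and the list of 10 summed to between 2.67 and 5.68 CPM in cxC26 scr and between 14.4 and 25.8 CPM in cxC26 IL6KOs1. Of 8 tested macrophage markers 8 were higher, with sums of 524 to 719 and 980 to 1707 CPM. Jchain, the joining chain of secreted antibodies, was higher and Cd79a was not called among the B and plasma cell markers, whose sum was 1.20 to 2.95 CPM in cxC26 scr and 8.21 to 73.2 CPM in cxC26 IL6KOs1, and cxC26 IL6KOs1 tumor 1 was the highest of the 8 tumors in all 3 immune lists. No marker of these lists was limited to 3 reads or fewer in every tumor. The part of these cells in the values of Kcnn4, Kcna3, Kcnk13 or any other member was not tested. No member's call changed when cxC26 IL6KOs1 tumor 1 was left out. That does not bear on the part of these cells, since every knockout tumor had a higher sum than every control tumor in all 3 lists.
For vessels, of 7 endothelial markers 1 (Vwf) was lower and 0 higher (119 to 190 CPM in cxC26 scr, 123 to 155 CPM in cxC26 IL6KOs1), and of 7 pericyte and smooth muscle markers 1 (Pdgfrb) was lower and 1 (Tagln) higher (201 to 270 and 181 to 249.9 CPM). For excitable tissue, of 4 tested neuron and Schwann cell markers Snap25 was lower and Tubb3 higher (7.60 to 16.4 and 22.5 to 36.7 CPM), with Elavl4 and Syt1 at 3 reads or fewer, and of 7 tested skeletal muscle markers 1 (Myh1, not called with precision weights) was higher (7.67 to 162 and 25.4 to 347 CPM). Of 5 adipocyte markers and 1 epidermal marker tested, 0 were called by limma, with sums of 123 to 182 and 109 to 236 CPM for the former and 11.3 to 26.4 and 9.23 to 14.1 CPM for the latter. The part of these cells in the members' values was likewise not tested.
Partners and other ion transport genes, listed by what their proteins do, were read from the same fit. The counts in these lists stand beside 20.7% lower and 19.1% higher over all tested genes. Each list holds few tested genes, and nothing is read from its shares. Of 7 tested channel partners 3 were lower and 0 higher (median log2 fold change -0.31), namely the scaffolds Dlg1 (-0.69, SE 0.11) and Dlg4 (-1.09, SE 0.09), which cluster Kv and Kir channels at membranes, and the syntaxin Stx1a (-1.46, SE 0.21). The sulfonylurea receptor subunit Abcc9, the partner of Kcnj8, had a log2 fold change of -0.05 (SE 0.20) and was not called. Of 8 tested partners that carry TASK-1 to the cell surface or hold it inside, 1 was lower (Copb1, -0.25, SE 0.08) and 1 higher (Ywhaz, 0.35, SE 0.09), with a median of 0.10. No tested gene of this list had a log2 fold change larger in size than 0.35.
Of 9 tested subunits of the sodium-potassium pump, which builds the gradient these channels use, 0 were lower and 3 higher, among them Atp1b3 (0.47, SE 0.10) and Fxyd6 (1.25, SE 0.38). Of 7 cation-chloride cotransporters 2 were lower (Slc12a4, -0.37, SE 0.09, and Slc12a9, -0.62, SE 0.14) and 1 higher (Slc12a7, 0.52, SE 0.09). All 3 tested HCN and cyclic nucleotide-gated channels, relatives of the Kv family that pass cations, were called, 2 lower, among them Hcn2 (-0.94, SE 0.29), and Cngb1 (3.54, SE 0.68) higher. Of 2 tested voltage-gated sodium channel genes 1 was higher (Scn7a, 0.91, SE 0.32).
Of 10 tested voltage-gated calcium channel genes 3 were lower, the pores Cacna1a (-0.88, SE 0.10) and Cacna1c (-1.46, SE 0.11) and the auxiliary subunit Cacng7 (-2.30, SE 0.27), and 1 was higher, the beta subunit Cacnb3 (0.91, SE 0.15). Of 13 tested chloride and volume-regulated channel genes 4 were lower and 2 higher (median -0.17), among them Clcn4 (-0.34, SE 0.11), Lrrc8a (-0.48, SE 0.12) and Lrrc8d (-0.50, SE 0.18) lower and Clcn3 (0.52, SE 0.09) higher. Where a direction had 0 calls in one of the lists given here or among the marker lists, limma with precision weights also gave 0, as did an unadjusted p under 0.05.
Kcnk3 lies on the chromosome of the edited gene. In GRCm38 (mm10), with RefSeq positions, Il6 occupies chr5:30013114-30019975 and Kcnk3 chr5:30588170-30625270 on the plus strand, 568195 bases from the end of Il6, and Kcnh2 lies on the same chromosome with its start 6268581 bases from that of Kcnk3. Of the 37 other tested genes that start within 1 Mb of Kcnk3, 23 were called lower (62.2%), 3 higher and 11 neither, with a median log2 fold change of -0.41. Over all tested genes 20.7% were lower and 19.1% higher. Without Il6 and the overlapping Gm9899, 21 of 35 were lower (60%) with a median of -0.38. The tested genes of chromosome 5 had a median of -0.24, among chromosome medians from -0.34 (chromosome 1) to 0.33 (chromosome 19).
Most of these neighbours had small differences beside that of Kcnk3. Fndc4 (-3.11, SE 0.26), Il6 (-2.45, SE 0.16) and Cgref1 (-1.04, SE 0.16) were the only genes other than Gm9899 with a log2 fold change of -1 or less, and the nearest tested genes beyond Kcnk3, Slc35f6 and Cenpa, had values of -0.49 (SE 0.09) and -0.33 (SE 0.14). Those higher were Emilin1 (0.43), Khk (0.55) and AI839979 (0.76). Around Kcnh2, 18 of 28 tested genes within 1 Mb were lower, against 20.7% of all tested genes, with a median of -0.38. Around Kcnk10 on chromosome 12 the neighbours' median was -0.13 (2 of 8 lower), around Kcnh1 on chromosome 1 it was -0.33 (8 of 18 lower), and around Kcnq5 on chromosome 1 both tested neighbours had -0.51. These 5 members were taken for a log2 fold change of -3 or less. Their place below the medians of their surroundings follows from that choice, and nothing is read from it. Whether the position of these genes in the subclone's genome bears on their values was not tested.

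**Figure D4:**
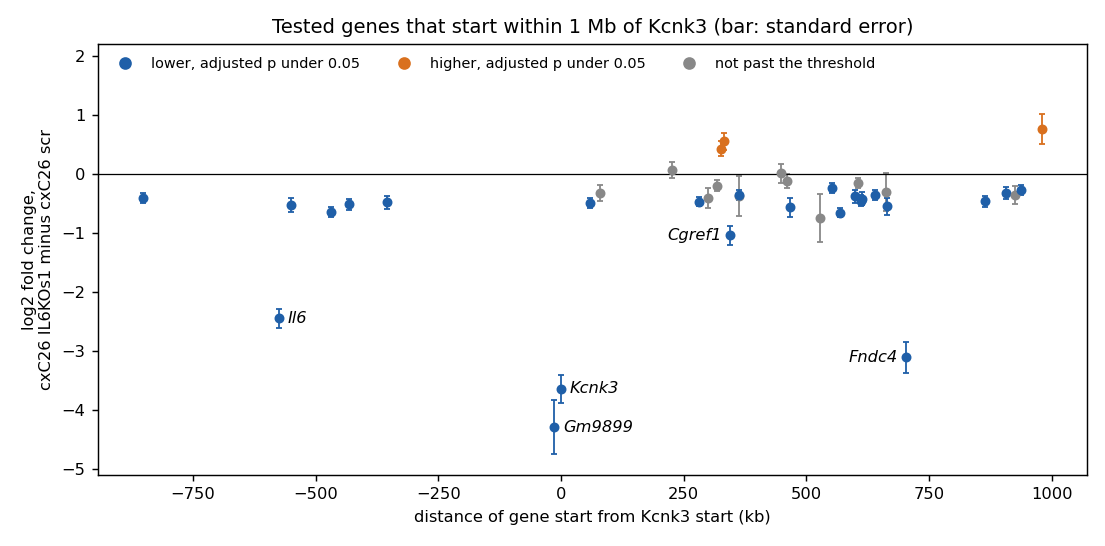
Log2 fold change, cxC26 IL6KOs1 minus cxC26 scr (vertical axis, points with standard error bars), of the tested genes that start within 1 Mb of Kcnk3, by distance of their start from that of Kcnk3 in kb (horizontal axis). Most neighbours sit slightly below 0, and Kcnk3, Gm9899, Fndc4 and Il6 lie apart from them at -2.45 or less.

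Gm9899, a noncoding gene on the minus strand whose first exon overlaps the first exon of Kcnk3, was lower as well. It had 404, 276, 270 and 301 reads in cxC26 scr and 17, 4, 20 and 33 in cxC26 IL6KOs1, a log2 fold change of -4.29 (SE 0.46) without overlap. In the GENCODE M21 models the exons of both genes share 229 bases, which is 5.76% of the exon length of Kcnk3 and lies wholly in its coding sequence in exon 1. The strand setting of the counting is not given in the sources used here, so reads from this stretch cannot be assigned to one gene or the other. The stretch is shown because it is where the 2 values could share reads, on the plus strand and all in lower case since every base is shared:
Kcnk3 and Gm9899, chr5:30588371-30588599: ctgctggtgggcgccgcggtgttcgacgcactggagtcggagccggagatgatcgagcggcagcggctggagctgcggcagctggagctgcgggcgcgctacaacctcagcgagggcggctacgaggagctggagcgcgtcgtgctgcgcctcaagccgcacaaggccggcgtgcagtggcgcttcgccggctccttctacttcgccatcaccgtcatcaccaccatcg
Other members overlap genes on the opposite strand as well. Kcnq1 shares 121 exon bases with Kcnq1ot1, which had a log2 fold change of -0.26 (SE 0.14) and was not called, and Kcnn1 shares 132 with A230052G05Rik, which had at most 1 read in any tumor. Kcnk2, Kcnq5, Kcnab1, Kcnab3, Kcnj15 and Kcne3 are among those that share between 9 and 604 exon bases with opposite-strand genes for which no value was analysed here.
The promoters of the lower members were read for short motifs. RefSeq windows of GRCm38.p6, from 250 bases before to 50 after a transcript start, were found for 19 of the 26 tested members (30 windows) and not for the others, among them Kcnk3, Kcnk6, Kcnd1, Kcnq1, Kcnab3 and Kcnu1. The palindrome bound by STAT factors, which act downstream of interleukin-6 (TTCNNNGAA), was in 8.30% of all 32851 promoter windows, in 0 of 7 windows of lower members, in 1 of 8 of higher members and in 0 of 15 of members not called. The GC box (GGGCGG) was in 35.7% of all windows, in 4 of 7 windows of lower and 3 of 8 windows of higher members. The AP-1 motif (TGANTCA, 7.81% of all windows), the cyclic AMP response element (TGACGTCA, 1.79%) and the E-box (CACGTG, 7.15%) were in 0, 0 and 1 of the 7 windows of lower members. Each motif was searched on both strands, none contains another, and a match describes letters and no binding. Median GC content was 64.3% over the 7 windows of lower members, 53.7% over the 8 of higher members and 52.7% over all windows.
The windows of 3 of the 4 lower members with a log2 fold change of -3 or less and a window are shown, in the direction of transcription with GC boxes on either strand in capitals, and the 2 windows of the fourth, Kcnq5, held none of the 5 motifs. Those of Kcnh2 and Kcnh1 belong to transcript starts inside the annotated genes.
Kcnk10, chr12:98578164-98578463, minus strand: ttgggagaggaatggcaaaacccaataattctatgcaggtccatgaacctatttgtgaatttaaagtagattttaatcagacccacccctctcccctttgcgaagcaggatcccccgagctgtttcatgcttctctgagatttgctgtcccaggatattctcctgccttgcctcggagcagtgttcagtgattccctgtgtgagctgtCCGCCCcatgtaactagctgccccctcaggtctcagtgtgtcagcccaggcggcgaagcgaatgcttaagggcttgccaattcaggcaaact
Kcnh1, chr1:192190527-192190826, plus strand: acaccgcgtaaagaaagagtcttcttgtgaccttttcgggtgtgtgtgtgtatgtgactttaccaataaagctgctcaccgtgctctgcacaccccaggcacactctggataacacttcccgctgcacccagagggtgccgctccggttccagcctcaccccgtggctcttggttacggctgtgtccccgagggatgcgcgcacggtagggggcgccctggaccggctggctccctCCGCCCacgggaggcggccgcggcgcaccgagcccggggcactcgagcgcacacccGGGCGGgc
Kcnh2, chr5:24329542-24329841, minus strand: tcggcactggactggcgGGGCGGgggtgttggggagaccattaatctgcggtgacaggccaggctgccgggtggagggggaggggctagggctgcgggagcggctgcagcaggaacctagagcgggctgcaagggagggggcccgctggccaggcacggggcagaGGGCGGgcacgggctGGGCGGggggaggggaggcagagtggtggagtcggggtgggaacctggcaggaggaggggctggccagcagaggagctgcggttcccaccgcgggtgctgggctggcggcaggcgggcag
These windows hold 1, 2 and 3 GC boxes, respectively. The other Kcnk10 window, at a start further inside the gene, held none of the 5 motifs.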

How the data were processed

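Poly(A) RNA from 8 frozen tumors, 4 per group, was sequenced. The authors made libraries with the NEBNext Ultra kit, ran Trimmomatic, HISAT2 (against mm10) and featureCounts on the reads and deposited log2 CPM per gene from limma-voom, with 0.5 reads added to each count. Per the labels, the tools included bcl2fastq 2.17. Other versions, the annotation and the strand setting are not given in the sources used here. Samples were grouped by their titles.
Whole reads were recovered from the deposited log2 values within 0.001 reads, and 14158989 to 17048062 reads per tumor set the precision of low genes. Genes reaching 1 CPM in 4 or more of the 8 tumors were fitted in R 4.3.3 with limma 3.58.1 (lmFit, eBayes with trend, no covariates), with Benjamini-Hochberg adjustment over all 13262 and a threshold of 0.05, after a test on simulated data. P-values set the difference between the groups against the spread between tumors within them, each tumor labelled as a separate sample. They hold no spread between clones, since the knockout cells were a single subclone. Classes were assigned by gene symbol. Levels per kb used the exon length from GENCODE M21, known for all 96 members, and positions came from RefSeq GRCm38.p6, matched by gene identifier for all 96 members and 13001 tested genes. Fold changes of genes with 3 reads or fewer in every tumor of a group were bounded against 3 reads per tumor.
The members and the gene lists were chosen with earlier results of these data known. Values in every tumor were given for Kcnk3, for members called with at least a 2-fold change and for the member of highest level per kb in each class; other tested members could be named with their fold change, untested ones where they had at least 10 reads in a tumor, and in each list up to 4 called genes of highest expression. Kcnj2, Kcnk2, Kcna3, Kcnj10, Kcnh6 and the other untested members with 10 reads or more, and uncalled genes of the lists, were given further values after these had been seen. Alternatives were no filter, a stricter one (mean log2 CPM of 3 or more), quantile normalization, centring on the median, log2(CPM + 1), no variance trend, voom precision weights on the recovered reads, a 2-fold threshold, the replicate number as a block and each tumor left out. Protein sequences were not analysed here, and some genes chosen by the rule are not reported here.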

Additional observations from a re-analysis of the deposited data

Results flagged for a closer look

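In 5 of the 52 groups of 4 tumors looked at (26 members in 2 groups), 1 tumor lay far from the other 3 by Dixon's criterion, where chance alone gives about 1 in 20, or 2.6 of 52. In cxC26 scr tumor 1, Kcnab2 had a log2 CPM of 5.76, against 5.47 to 5.49 in the other control tumors, and Kcnj12 had 1.05, against -0.42 to -0.19. In cxC26 scr tumor 3, Kcnd1 had 1.10, against 1.32 to 1.36. In cxC26 IL6KOs1 tumor 1, Kcnn4 had 6.92, against 6.42 to 6.48 in the other knockout tumors. In cxC26 IL6KOs1 tumor 4, Kcnh1 had 1.77, against -0.16 to -0.12, which is 49 reads where the other 3 had 12 to 14.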

How the results depend on the processing

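Kcnk3 kept its direction and its call in all 16 alternatives, with log2 fold changes between -3.84 and -3.39. Of the 26 tested members, 19 kept their call in every alternative that tested them, as did 11 of the 14 called ones; Kcnab3 and Kcne3 were among those that lost theirs in some. Under the stricter filter (mean log2 CPM of 3 or more), 6 members remained, the median log2 fold change turned from 0.14 to -0.51, 3 members were lower instead of 9 and 0 higher instead of 5; the filter left fewer members by construction. With each tumor left out in turn, lower members numbered 7 to 9, higher members 4 to 8, the median ranged from 0.04 to 0.24 and Kcnk3 from -3.84 to -3.46, while genes called lower numbered 2193 to 2674 and higher 2023 to 2540 over all tested genes. The 8 higher members were reached without cxC26 scr tumor 1, where Kcnk13, Kcnj15 and Kcnn4 were called as well. Same-numbered tumors grew in different mice, and their deviations from the group means correlated at -0.0593, 0.057, 0.017 and -0.0587, so the numbers do not pair them; 1 of the 4 correlated best with its own number. With the replicate number as a block, 9 members were lower, 7 higher (Kcnn4 and Kcnj15 in addition), and Kcnk3 was at -3.65. With quantile normalization or median re-centring 6 members were higher, Kcnn4 in addition. Among all called members 64.3% were lower, against 52.1% of all called genes. Without cxC26 scr tumor 1 these shares were 52.9% and 51.3%. With the replicate number as a block they were 56.2% and 52%, and under the stricter filter 100% (3 members) and 55.5%. Read depth limits the 70 untested members, and 1 knockout subclone limits what the comparison can say about the gene. The cause of each change in call was not tested.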
